A study of Mus musculus with 6 samples.

Results

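The genes described here are 9 members of the thyroid hormone receptor machinery, chosen by symbol from the 30042 genes of the deposited expression table: the hormone receptors Thra and Thrb, the retinoid X receptors Rxra, Rxrb and Rxrg, the corepressor Ncor1, the coactivator Ncoa1 and the receptor targets Klf9 and Hr. All 9 were found and all 9 reached at least 1 RPKM (reads scaled to gene length and library depth) in some library. RNA sequencing was done on whole retina of wild-type mice before birth at E16.5, embryonic day 16.5, and after birth at P1, P3, P7, P14 and P28, where P counts postnatal days, with 1 library per age, and no mutant or treated retina was analysed here. Every library carries the strain label 129/Sv; C57/BL6J, and the labels give neither sex nor the number of animals per library. The series title concerns mice that lack the deiodinases which activate or inactivate thyroid hormone, and these libraries give the wild-type course of the genes through which that hormone acts.

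Thyroid hormone receptors are nuclear receptors that sit on DNA, mostly as heterodimers with a retinoid X receptor. Without hormone they hold corepressor complexes built on scaffolds such as NCOR1, which carry histone deacetylases, and with hormone they exchange these for coactivators such as NCOA1. In the mouse retina Thrb is known for its role in cones, where an isoform of it is needed for the middle-wavelength opsin, and Rxrg for restraining the short-wavelength opsin in the same cells. Thra also gives rise to an isoform that does not bind hormone. The table has 1 value per gene, so isoforms of Thra or Thrb cannot be told apart, and hormone, receptor protein and DNA binding were not measured.

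Libraries were estimated to hold 12766717 (P1) to 28807666 (P14) reads. The rod list summed to 9133 RPKM at P28 and 160 RPKM at E16.5, where Gnb1 alone held 110 RPKM. The cone list summed to 687 RPKM at P28 and 53.2 RPKM at E16.5, and no gene of either list was at 0 at any age. Markers of 3 other tissues were uneven: 6 lens genes summed to 29.1, 15.5 and 27.1 RPKM in the E16.5, P1 and P28 libraries and to 0.820 to 1.14 RPKM at P3, P7 and P14, 5 erythroid genes reached 138 RPKM at E16.5 against 16.1 RPKM or less later, and 8 pigment epithelium genes lay between 2.85 RPKM at P1 and 38.8 RPKM at P28. For 23 genes at 20 RPKM or more at E16.5 and under 1% of that at P14, the median P28 level was 2.51% of the E16.5 level; whether the P28 library holds E16.5 material was not tested. Library titles came in 2 forms, shared by P3, P7 and P14 on one side and by E16.5, P1 and P28 on the other, and the first 3 were also the deepest. Single libraries allow no test between ages, so the test asked whether log2(RPKM + 1) followed a straight line over the order of the 6 ages (limma, two-sided, Benjamini-Hochberg adjusted over 15272 genes, called at 0.05). Its p-values measure the scatter of libraries of different ages around that line. Intervals given for single values and ratios are 95% counting intervals from estimated reads, which leave out all but counting error and treat PCR copies as separate molecules.

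Of the 9 genes, Klf9 and Hr rose with age, Rxrg fell, and 6 did not pass the test. Over all tested genes 15.2% rose and 29.9% fell, a balance that turned to 21.5% and 17.4% when libraries were scaled to a common total without the 50 highest genes. The median slope of the 9 genes was 0.036 log2 units per age step, beside -0.059 for all tested genes, which was -0.012 with median-of-ratios rescaling and 0.011 with that common total. The members ranged widely in how much they moved: the range of log2(RPKM + 1) over the ages was 0.45 for Ncor1 and 4.07 for Hr, against a median of 0.98 for all tested genes.

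**Figure D1:**
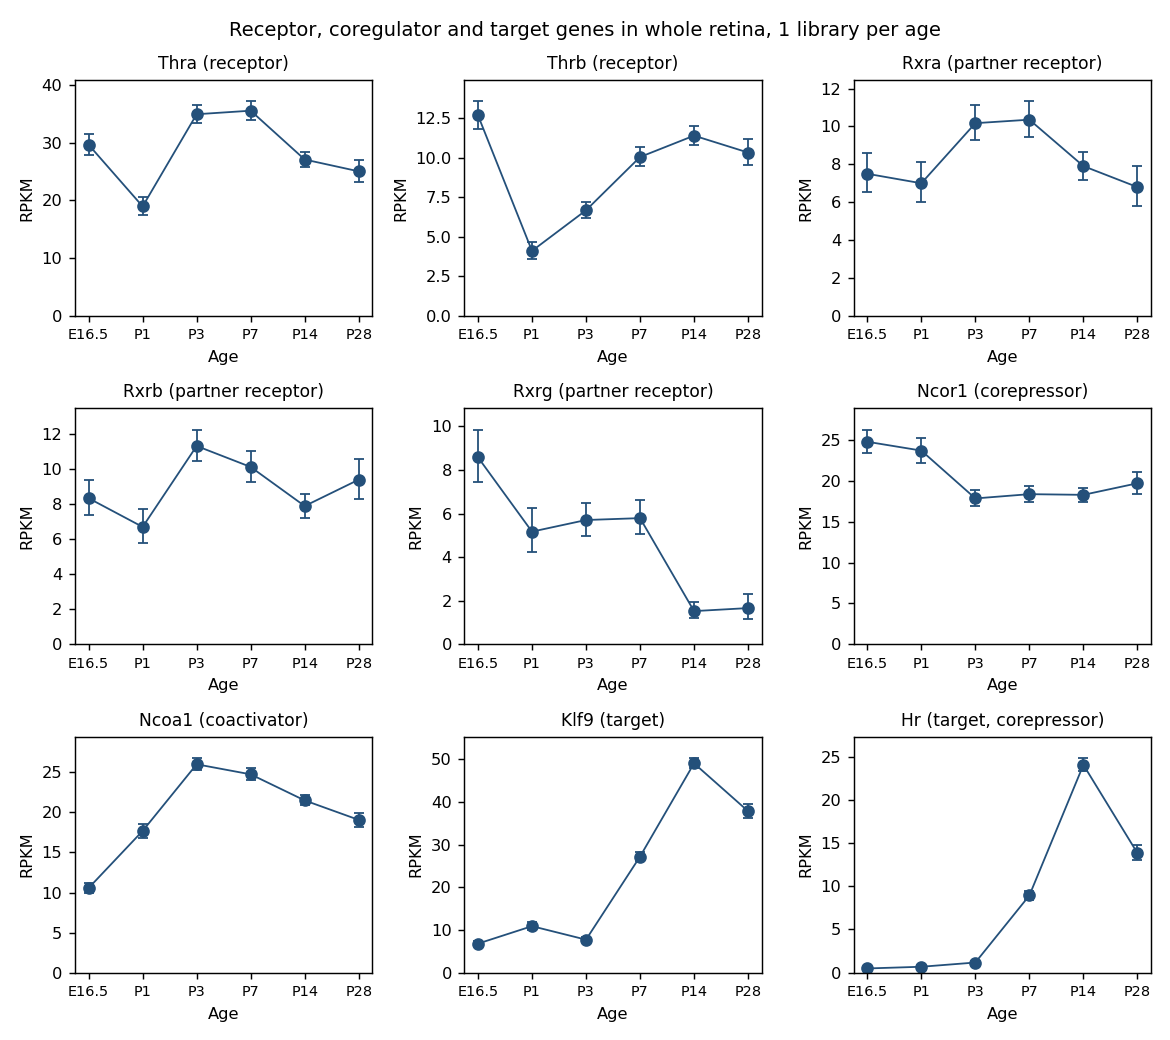
RPKM of each gene (vertical axis, starting at 0) at each of the 6 ages (horizontal axis), 1 library per age; bars are 95% Poisson counting intervals from estimated reads and carry no animal-to-animal spread. Klf9 and Hr are highest at P14, Rxrg is lowest at P14 and P28, and Thra and Thrb are lowest at P1.

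Thra, the gene of receptor TRα, was the more abundant receptor transcript in every library. It stood at 29.7 RPKM in the E16.5 library and 18.97 RPKM in the P1 library, then at 35.0 (P3), 35.6 (P7), 27.1 (P14) and 25.1 RPKM (P28). P1 was the lowest library and P3 and P7 the highest, and the counting intervals of P3 (33.4 to 36.6 RPKM) and P7 (34.0 to 37.2 RPKM) overlapped. Its slope was 0.0093 ± 0.077 log2 units per step (SE, adjusted p = 0.931). The P1 value was 0.639 times the E16.5 value (0.575 to 0.711), and the P3 value was 1.84 times the P1 value (1.67 to 2.03). In the reference annotation 263 of the 4614 exonic bases of Thra are shared with Nr1d1 on the opposite strand, and no source used here says whether counting used strand. Nr1d1, a clock-linked repressor, read 10.6 RPKM at E16.5, 38.5 RPKM at P14 and 62.2 RPKM at P28, and reads in the shared stretch cannot be assigned to either gene.

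Thrb, the gene of receptor TRβ, had its highest and lowest values at adjoining ages. It stood at 12.7 RPKM in the E16.5 library and 4.11 RPKM in the P1 library, then at 6.68 (P3), 10.1 (P7), 11.4 (P14) and 10.3 RPKM (P28). The values of P7, P28 and P14 were neighbours in the order of levels, with overlapping counting intervals between P7 and P28 (9.46 to 10.7 and 9.53 to 11.2 RPKM) and between P28 and P14 (10.8 to 12.01 RPKM at P14), and those of P14 and E16.5 (11.9 to 13.6 RPKM) also overlapped. Thrb at P1 was 0.324 times its E16.5 value (0.279 to 0.374), a difference of -1.42 on the log2(RPKM + 1) scale, and it was the only member lower by at least 1 log2 unit in that step, which 2.23% of tested genes were. The P14 value was 2.78 times the P1 value (2.42 to 3.20). Over all 6 ages the slope was 0.086 ± 0.11 (adjusted p = 0.531). Without E16.5 it was 0.30 and passed the test (adjusted p = 0.0275), while without P1 it was -0.011 (adjusted p = 0.920). In whole retina, fewer cells of a type and less RNA per cell cannot be told apart. Between E16.5 and P1 the 8 ganglion cell markers summed to 378 RPKM at P1, against 934 RPKM at E16.5, the 12 cone markers to 119 RPKM at P1, against 53.2 RPKM at E16.5, and the 10 progenitor and cell cycle genes to 1303 RPKM at P1, against 1369 RPKM at E16.5; the part of these cells in the step of Thrb was not tested.

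The RefSeq promoter table (build GRCm38.p6) holds entries for 7 of the 9 genes, 12 in all, with 5 genes having 2 entries each; Thra and Hr are named only. Both entries of Thrb are shown because the gene has 2 annotated starts, which its single RPKM value does not separate. Each covers 250 bases before and 50 after an annotated start, plus strand, and capitals mark AGGTCA on either strand, the core that thyroid hormone and retinoid X receptors recognise. It lies 184 bases before the first start shown and does not occur in the second window.
Thrb, first start, chr14:17660710-17661009: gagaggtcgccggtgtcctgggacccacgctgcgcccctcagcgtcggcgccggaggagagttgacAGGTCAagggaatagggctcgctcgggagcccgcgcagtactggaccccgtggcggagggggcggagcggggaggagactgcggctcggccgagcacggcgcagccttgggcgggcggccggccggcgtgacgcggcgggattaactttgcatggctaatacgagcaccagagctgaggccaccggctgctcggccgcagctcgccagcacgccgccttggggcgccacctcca
Thrb, second start, chr14:17981394-17981693: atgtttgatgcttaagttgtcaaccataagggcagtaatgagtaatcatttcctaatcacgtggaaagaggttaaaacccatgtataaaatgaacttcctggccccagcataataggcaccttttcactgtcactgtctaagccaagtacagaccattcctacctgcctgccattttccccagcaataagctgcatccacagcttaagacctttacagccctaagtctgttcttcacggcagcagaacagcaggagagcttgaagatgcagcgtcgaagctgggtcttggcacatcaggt
Of all 32851 promoter entries 16.3% held AGGTCA, and 3 of the 12 entries of these genes did: one each of Thrb, Rxrg and Rxra. A pair of AGGTCA on the same strand spaced by 4 bases (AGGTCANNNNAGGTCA, both strands searched) was in none of the 12 and in 0.0152% of all entries. A match is a run of letters and no evidence of binding.

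The share of Thra in the summed Thra and Thrb RPKM was highest at P1 and P3, at 82.2% and 84.0%. It was 70.0% in the E16.5 library, 78.0% at P7, and 70.4% and 70.8% at P14 and P28. The sum itself was lowest at P1, at 23.1 RPKM, and lay between 35.4 and 45.6 RPKM at the other ages. The slope of Thrb minus Thra on the log2(RPKM + 1) scale was 0.076 per step (exact permutation test over the 6 libraries, two-sided, p = 0.531, adjusted over 6 pairs 0.531).

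**Figure D2:**
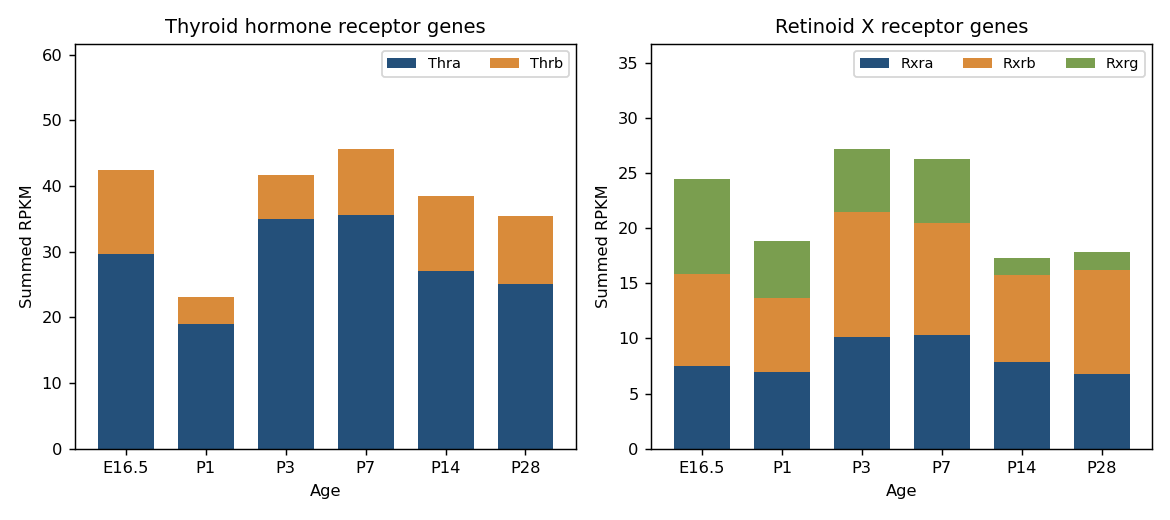
Summed RPKM (vertical axes, starting at 0) of the thyroid hormone receptor genes (left) and the retinoid X receptor genes (right) at each age, stacked by gene. Rxrg fills 9.30% of its bar at P28 and 35.2% at E16.5, while the receptor sum dips at P1.

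Rxrg was the only one of the 9 genes that fell. It stood at 8.58 RPKM in the E16.5 library and 5.17 RPKM in the P1 library, then at 5.70 (P3), 5.79 (P7), 1.52 (P14) and 1.66 RPKM (P28). The values from P1 to P7 were close, with overlapping counting intervals, and P14 and P28 lay below all others. Its slope was -0.37 ± 0.081 log2 units per step (adjusted p = 0.00877), and it passed the test in each fit that left out 1 library (adjusted p 0.00379 to 0.0417). The main step lay between P7 and P14: the P14 value was 0.263 times the P7 value (0.198 to 0.345), a fall past 1 log2 unit that 2.4% of tested genes showed. Within each form of library title the latest age was also the lowest, with 1.66 RPKM at P28 and 1.52 RPKM at P14. The cone list was mixed over that step: 8 of its 12 genes were higher at P14 than at P7 and 4 were lower, and its summed level was 447 RPKM at P14 and 313 RPKM at P7. The genes that added most to that sum were Kcnv2, Guca1a and Opn1mw. Kcnv2 stood at 123 RPKM at P14 and 58.3 RPKM at P7, and Guca1a at 67.5 RPKM at P14 and 15.9 RPKM at P7. Opn1mw stood at 39.5 RPKM at P14 and 0.794 RPKM at P7. Gngt2 stood at 4.75 RPKM at P14 and 20.2 RPKM at P7, and Gnb3 at 85.2 RPKM at P14 and 125 RPKM at P7. The ganglion cell list summed to 265 RPKM at P14 and 202 RPKM at P7, and was mixed too. In it Nefl (103 RPKM at P14 and 58.1 RPKM at P7), Thy1 and Sncg were higher at P14. Gap43 (16.4 RPKM at P14 and 33.6 RPKM at P7), Isl1, Pou4f1, Pou4f2 and Rbpms were lower. The progenitor and cell cycle list summed to 107 RPKM at P14 and 258 RPKM at P7. The part of these cells and of cones in the fall of Rxrg was not tested.

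The entries of Rxrg, the gene that fell, are shown for both annotated starts; AGGTCA lies 88 bases before the second start and is absent from the first window.
Rxrg, first start, chr1:167598112-167598411, plus strand: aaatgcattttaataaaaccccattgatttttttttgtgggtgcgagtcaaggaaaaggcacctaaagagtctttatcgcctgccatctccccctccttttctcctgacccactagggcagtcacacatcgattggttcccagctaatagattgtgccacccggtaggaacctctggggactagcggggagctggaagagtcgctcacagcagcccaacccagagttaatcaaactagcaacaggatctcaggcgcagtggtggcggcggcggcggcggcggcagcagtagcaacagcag
Rxrg, second start, chr1:167618015-167618314, plus strand: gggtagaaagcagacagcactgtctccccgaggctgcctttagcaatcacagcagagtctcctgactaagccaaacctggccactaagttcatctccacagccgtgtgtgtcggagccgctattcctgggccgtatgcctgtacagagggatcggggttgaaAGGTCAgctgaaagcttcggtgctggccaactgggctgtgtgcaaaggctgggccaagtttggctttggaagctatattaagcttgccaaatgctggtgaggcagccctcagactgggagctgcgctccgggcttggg

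Rxra and Rxrb, the other retinoid X receptors, had ranges of 0.54 and 0.68 log2 units. Rxra stood at 7.50 RPKM in the E16.5 library and 6.996 RPKM in the P1 library, then at 10.2 (P3), 10.4 (P7), 7.90 (P14) and 6.79 RPKM (P28). P3 and P7 were high and the other 4 libraries had overlapping counting intervals. Rxrb stood at 8.32, 6.69, 11.3, 10.1, 7.88 and 9.38 RPKM in the same order, highest at P3 and lowest at P1. Their slopes were -0.0038 ± 0.060 for Rxra (adjusted p = 0.964) and 0.036 ± 0.060 for Rxrb (adjusted p = 0.646). At E16.5 Rxra, Rxrb and Rxrg held 30.7%, 34.1% and 35.2% of the summed RPKM. At P14 Rxrg held 8.79% and at P28 9.30%, and Rxrb held 52.6% at P28. Rxrg fell relative to both relatives: the slope of the difference was -0.37 per step against Rxra and -0.41 against Rxrb (exact permutation, p = 0.00833 each, adjusted 0.025 each), and Rxrg was lower relative to each at P14 and P28 than at any earlier age. With any 1 library left out the slopes of these differences kept their sign, at -0.44 to -0.32 and -0.43 to -0.38, while the adjusted p was 0.05 to 0.125, where 5 libraries allow no exact p under 0.0167. The difference in slope between Rxra and Rxrb was -0.040 and did not pass (exact permutation p = 0.414, adjusted 0.497).

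The coregulators Ncor1 and Ncoa1 crossed in level between P1 and P3, and neither passed the test. Ncor1, the scaffold of a corepressor complex, stood at 24.8 RPKM in the E16.5 library and 23.8 RPKM in the P1 library, then at 17.9 (P3), 18.4 (P7), 18.3 (P14) and 19.7 RPKM (P28). It had the smallest range of the 9 genes, and its slope was -0.075 ± 0.050 (adjusted p = 0.252). Ncoa1, a p160 coactivator, stood at 10.6 RPKM in the E16.5 library and 17.7 RPKM in the P1 library, then at 26.0 (P3), 24.7 (P7), 21.5 (P14) and 19.1 RPKM (P28). P3 was the highest library and every later library lay above E16.5. The slope of Ncoa1 was 0.13 ± 0.082 (adjusted p = 0.209), and without E16.5 it was -0.0058 (adjusted p = 0.959). The ratio of Ncoa1 to Ncor1 RPKM was 0.425 and 0.744 in the E16.5 and P1 libraries, 1.45 and 1.34 in those of P3 and P7, and 1.17 and 0.965 in those of P14 and P28. The slope of that difference on the log2(RPKM + 1) scale was 0.21 per step (exact permutation p = 0.183, adjusted 0.275). Curvature over the ages, the quadratic term of the limma fit, was called for 0 of the 9 genes and for 0% of all tested genes (with an unadjusted p under 0.05, 1652 were highest and 1206 lowest in the middle); that of Ncoa1 was -0.78 ± 0.18, with an unadjusted p of 0.00381 and an adjusted p of 0.156.

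Both coregulators and Rxra also followed the form of library title. Ncoa1 and Rxra were higher at P3, P7 and P14 than in any of the E16.5, P1 and P28 libraries, as were 7.09% of tested genes, and Ncor1 was lower at P3, P7 and P14 than in any of the others, as were 3.82%. A limma term for the title form was 0.53 ± 0.22 for Ncoa1 (adjusted p = 0.346), 0.40 ± 0.16 for Rxra (adjusted p = 0.321) and -0.25 ± 0.15 for Ncor1 (adjusted p = 0.477). Age and title form cannot be told apart for these courses. The summed level of the lens genes given above was split the same way, though not every gene of that list was. Cryaa stood at 23.7, 13.0 and 20.7 RPKM at E16.5, P1 and P28 and at most 0.351 RPKM at P3, P7 and P14. Bfsp1 was lowest at P28 (0.196 RPKM), and Crygs was higher at P7 (0.171 RPKM) than at E16.5 (0.0923 RPKM). The part of the lens genes was not tested. A transcript annotated antisense to Ncoa1, 4921501I09Rik, overlaps 68 of the 8576 exonic bases of Ncoa1 and was listed at 0 RPKM for E16.5 and for P1, then at 1.65 (P3), 1.56 (P7), 1.54 (P14) and 0.203 RPKM (P28).

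**Figure D3:**
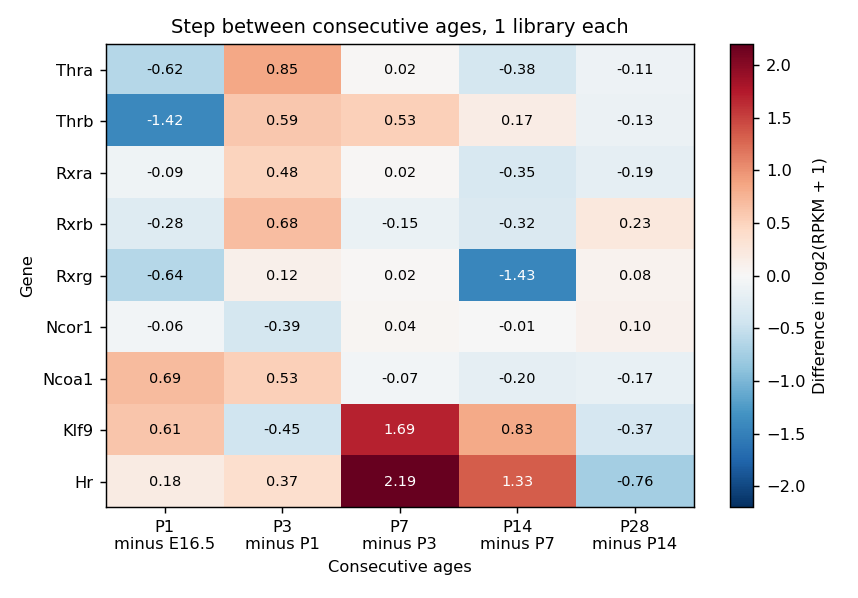
Difference in log2(RPKM + 1) between consecutive ages, later minus earlier (columns), for each gene (rows), 1 library per age; red is higher at the later age and blue lower. The steps beyond 1 log2 unit are Thrb at P1, Klf9 and Hr at P7, and Hr and Rxrg at P14.

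The target genes Klf9 and Hr both rose, with their largest step at P7. Klf9, a zinc-finger transcription factor induced by thyroid hormone in brain, stood at 6.80 RPKM in the E16.5 library and 10.9 RPKM in the P1 library, then at 7.73 (P3), 27.2 (P7), 49.0 (P14) and 37.8 RPKM (P28). The 3 early libraries lay below the 3 late ones. Its slope was 0.56 ± 0.11 log2 units per step (adjusted p = 0.00545), and it passed with any 1 library left out (adjusted p 0.00359 to 0.0264). Its P7 value was 3.52 times the P3 value (3.25 to 3.80), its P14 value 1.80 times the P7 value (1.72 to 1.89) and its P28 value 0.771 times the P14 value (0.734 to 0.810).

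Hr, the hairless gene, encodes a corepressor that binds thyroid hormone receptors and is itself a target of them. It stood at 0.490 RPKM in the E16.5 library and 0.687 RPKM in the P1 library, then at 1.18 (P3), 8.94 (P7), 24.1 (P14) and 13.8 RPKM (P28). Reads were few at first, an estimated 48 at P1 and 39 at E16.5, and the counting intervals of those ages overlapped (0.506 to 0.911 RPKM at P1 and 0.348 to 0.670 RPKM at E16.5). The slope was 0.87 ± 0.14 (adjusted p = 0.00336), higher than that of 99.3% of tested genes, and it passed with any 1 library left out (adjusted p 0.00371 to 0.0163). Its P7 value was 7.60 times the P3 value (6.42 to 9.05), its P14 value 2.69 times the P7 value (2.52 to 2.88) and its P28 value 0.575 times the P14 value (0.536 to 0.617). Both targets were higher by at least 1 log2 unit at P7 than at P3, as were 2.36% of tested genes, and Hr again at P14 over P7, as were 2.92%. No member was lower by that much at P7 than at P3 (3.54% of tested genes). Between P1 and P3 0 members were higher (1.94%) or lower (3.52%) by 1 log2 unit, between P14 and P28 0 were higher (1.19%) or lower (0.53%), and 0 were higher at P1 than at E16.5 (1.05%).

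Both rises were present within each form of library title. Klf9 stood at 6.80, 10.9 and 37.8 RPKM at E16.5, P1 and P28, and at 7.73, 27.2 and 49.0 RPKM at P3, P7 and P14. Hr stood at 0.490, 0.687 and 13.8 RPKM in the first set and at 1.18, 8.94 and 24.1 RPKM in the second. The ratio of Klf9 to Hr RPKM was 13.9 and 15.9 in the E16.5 and P1 libraries, 6.57 and 3.04 in those of P3 and P7, and 2.04 and 2.73 in those of P14 and P28. The slope of Hr minus Klf9 was 0.31 per step (exact permutation p = 0.0333, adjusted 0.0667), so the steeper rise of Hr did not pass the adjusted test; with a pseudocount of 0.1 RPKM it was 0.57 and passed (adjusted p = 0.0333). The 8 genes of the bipolar cell list summed to 31.8 (E16.5), 18.9 (P1), 17.0 (P3), 110 (P7), 217 (P14) and 162 RPKM (P28). From P3 on this sum and both targets were highest at P14. Before that Hr rose, Klf9 was lower at P3 than at P1, and the bipolar genes were mixed. Isl1, also in the ganglion cell list, held most of the early sum, at 24.6 (E16.5), 10.3 (P1) and 7.84 RPKM (P3). Over these ages Trpm1 and Pcp2 also fell, Prkca and Cabp5 rose, and Grm6, Gpr179 and Vsx1 were highest at P1. The amacrine and horizontal cell list, its sum also highest at P14, summed to 36.1, 48.1, 68.5 and 62.9 RPKM from P3 to P28. Its genes were mixed: Gad1 and Calb1 were highest at P14, Slc6a9 at P28 (34.9 RPKM), Lhx1 at P7, Gad2 at P1 and Onecut1 at E16.5. From P3 to P28 the rod list summed to 390, 1568, 6989 and 9133 RPKM, of which Gnb1 held 135 RPKM at P3. The part of these cells in the rises was not tested.

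The promoter entry of Klf9, the only target with one, is shown for its letters; AGGTCA does not occur in this window.
Klf9, chr19:23140976-23141275, plus strand: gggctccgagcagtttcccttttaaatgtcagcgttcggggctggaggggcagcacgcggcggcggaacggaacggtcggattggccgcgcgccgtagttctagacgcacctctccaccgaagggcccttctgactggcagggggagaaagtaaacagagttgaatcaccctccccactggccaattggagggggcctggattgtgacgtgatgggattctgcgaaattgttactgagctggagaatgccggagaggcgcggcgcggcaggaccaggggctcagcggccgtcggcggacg

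At P14, the age at which both targets were highest, 3 of the 9 genes lay beyond 1 log2 unit from E16.5. Klf9 was 7.21 times (6.54 to 7.95) and Hr 49.1 times (35.8 to 69.2) the E16.5 value, a difference of at least 1 log2 unit that 11.5% of tested genes showed upward. Rxrg was 0.177 times (0.133 to 0.233), a difference that 19.7% showed downward. Ncoa1 was 2.03 times (1.91 to 2.17), or 0.96 on the log2(RPKM + 1) scale, just under the limit of 1. Thra, Thrb, Rxra and Rxrb were at 0.914, 0.898, 1.05 and 0.947 times their E16.5 values, and Ncor1 was at 0.738 times.

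The genes whose course was most like each member over the 6 libraries were found by Pearson's r on log2(RPKM + 1) among 5283 genes, as a description of libraries they share. For Hr they were Pppde2 (r = 0.998), Rnf152 (0.997) and Hsbp1l1 (0.996), and for Klf9 they were Ric8b (0.995), Bbs12 (0.994) and again Hsbp1l1 (0.991), so both targets named the same gene among their 3 nearest. Hsbp1l1 read 1.21, 1.56, 1.41, 8.53, 18.6 and 12.3 RPKM from E16.5 to P28. Rxrg was most like 4931428F04Rik (r = 0.998), the neuronal cytoskeleton regulator Dpysl3 (0.998) and Efs (0.993); Dpysl3 read 158 RPKM at E16.5, 109 to 116 at P1 to P7, and 49.8 and 47.7 at P14 and P28. Thra was most like the small GTPase gene Arf5 (r = 0.983), the lactate dehydrogenase gene Ldha (0.957) and the methionyl-tRNA synthetase gene Mars (0.939), and Ldha read 119 (E16.5), 39.6 (P1) and 132 RPKM (P3). Thrb was most like Gm14964 (r = 0.987), Pdxp (0.969) and Gpr153 (0.961). Each was lowest at P1 too, which picking genes for a like course favours. Rxra was most like Angel1 (0.988), Myt1 (0.986) and Zfp385c (0.984), and Rxrb like Pisd-ps1 (0.957), G730046D07Rik (0.928) and Gm6251 (0.924). Ncoa1 was most like Lars2 (r = 0.996), Nfix (0.994) and Slc27a1 (0.991). Ncor1 was most like LOC100504089 (r = 0.998), Gm7536 (0.997) and Prr13 (0.997), of which Gm7536 read 21.8, 16.6 and 1.47 RPKM at E16.5, P1 and P28 and at most 0.0539 RPKM at P3, P7 and P14.

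Of 9 tested corepressor genes 0 rose and 6 fell, beside 15.2% and 29.9% of all tested genes (median slope -0.22, against -0.059). Without P14, without P28 or with a common total leaving out the 50 highest genes, 4 fell (19.5%, 21.9% and 17.4% of all tested genes). The histone deacetylase Hdac2 stood at 45.3 (E16.5), 23.4 (P3) and 8.78 RPKM (P28) (slope -0.48 ± 0.054, adjusted p = 0.00161), and Gps2, a subunit of the NCOR complex, at 24.7, 15.7 and 11.0 RPKM (slope -0.24). Of 10 tested coactivator genes 1 rose and 4 fell, beside the same 15.2% and 29.9%. Their median slope was -0.068, and 0.015 with that common total. Without P14 0 rose and 2 fell (10.1% and 19.5% of all tested genes), and without P28 1 and 2 (12.3% and 21.9%). Without E16.5, P1 or P7 the counts were 0 and 3 (11.2% to 14.3% and 24.1% to 27.4%). The arginine methyltransferase genes Prmt1 and Carm1 fell, with slopes of -0.41 and -0.28, and the acetyltransferase gene Kat2b rose (slope 0.20, adjusted p = 0.0473), a call absent without E16.5 (0.336), P1 (0.0786), P7 (0.0585) or P14 (0.111). Of the paralogues of Ncoa1, Ncoa2 stood at 8.65 RPKM at E16.5, 18.97 at P7 and 10.9 at P28 (adjusted p = 0.328), and Ncoa3 fell (slope -0.13, adjusted p = 0.0350), a call absent when any 1 library was left out (0.0634 to 0.115) and with either rescaling (0.147 and 0.415).

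Receptors that share the retinoid X partners went both ways: of 8 tested 3 rose and 3 fell, beside 15.2% and 29.9% of all tested genes. Without P28 0 rose and 3 fell of 6 tested (12.3% and 21.9% of all tested genes). Without E16.5, without P14 and under either rescaling, 3 rose and 1 fell (10.1% to 21.5% and 17.4% to 25.9%). Nr4a1, an immediate early gene, stood at 12.3 RPKM at P28 and 3.94 RPKM at E16.5 (slope 0.34, adjusted p = 0.0135; without P28 0.0861), and Rarg at 1.502 RPKM at P28 and 0.313 RPKM at E16.5. Rarg, counted among those that rose, reached 1 RPKM at P28 alone, so it was tested only through the age at which it was highest. Nr4a2 fell (slope -0.27), as did the retinoic acid receptor gene Rara (slope -0.21, adjusted p = 0.0270), a call absent without P14 (0.0852), without E16.5 (0.167) and with either rescaling (0.0855 and 0.121). Of 9 orphan receptors of retina and clock 5 rose and 3 fell, beside the same 15.2% and 29.9%. Without E16.5 or without P14 3 rose (12.9% and 10.1% of all tested genes). Esrrb, an orphan receptor of rods, stood at 0.886 (P3), 4.12 (P7), 47.6 (P14) and 63.0 RPKM (P28) (slope 1.16 ± 0.20, adjusted p = 0.00373), and Nr1d1 rose with a slope of 0.49 ± 0.071 (adjusted p = 0.00245). Nr2e3, a rod factor, stood at 0.708 RPKM at E16.5, 192 at P7 and 58.1 at P28 (adjusted p = 0.0388), and lost its call without E16.5 (0.339), P14 (0.0802) or P1 (0.0803). Nr2e1 and Nr2f1 fell, with slopes of -0.75 and -0.51.

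Of 11 tested genes of the Klf family, the relatives of Klf9, 1 rose and 6 fell, with a median slope of -0.24. Of all tested genes 15.2% rose and 29.9% fell. Klf13, a close relative of Klf9, stood at 22.3 (P3), 7.39 (P7), 5.60 (P14) and 6.76 RPKM (P28), where Klf9 stood at 7.73, 27.2, 49.0 and 37.8 RPKM (slope of Klf13 -0.36 ± 0.092, adjusted p = 0.0163; without P14 0.0535; with the common total 0.0517). Klf7 and Klf3 also fell, with slopes of -0.47 and -0.46. Klf2 was the gene that rose (slope 0.16, adjusted p = 0.0463), and it was not called without E16.5 (0.120), P1 (0.0975), P3 (0.0698), P7 (0.0681) or P28 (0.0525), and without P14 it did not reach 1 RPKM. Of the 3 relatives of Hr that share its JmjC domain, Kdm3a fell (slope -0.26, adjusted p = 0.0111; without P28 0.0763; with the common total 0.0668), Kdm3b rose (slope 0.13, adjusted p = 0.0487; 0.0630 to 0.161 with 1 library left out) and Jmjd1c did not pass (adjusted p = 0.815).

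Of 10 tested genes known to respond to thyroid hormone in other tissues or in cones 6 rose and 2 fell (median slope 0.38). Beside these, 15.2% of all tested genes rose and 29.9% fell. Without P28 4 rose and 1 fell (12.3% and 21.9% of all tested genes). Opn1mw, the middle-wavelength cone opsin, stood at 39.5 RPKM at P14 and 0.794 RPKM at P7 (slope 1.16 ± 0.26, adjusted p = 0.0104; without P28 0.0617). Pcp2, a hormone response gene of cerebellar Purkinje cells that bipolar cells also express, stood at 1.84 (P3), 5.45 (P7), 34.1 (P14) and 30.1 RPKM (P28) (slope 0.78, adjusted p = 0.00816). Metabolic response genes of liver were found in both directions. Fasn and Gpd2 fell, with slopes of -0.30 (adjusted p = 0.00882; without P28 0.0534) and -0.22, while Me1 and Thrsp, named here after their values were seen, rose with slopes of 0.53 (adjusted p = 0.00149) and 0.43 (adjusted p = 0.00776). Of 8 tested hormone supply genes 4 rose and 2 fell, beside the same 15.2% and 29.9%. Without P7 3 fell (27.4% of all tested genes), and 1 fell when any of E16.5, P1, P14 and P28 was left out (19.5% to 25.9%). Without P1, P14 or P28 3 rose (10.1% to 12.3%). Slco1c1, counted among those that rose and named after its values were seen, was tested only through P14, at 1.24 RPKM the sole age above 1 RPKM. Dio2, the activating deiodinase, stood at 0.159 RPKM at P3, 0.552 at P7 and 7.35 at P14 (slope 0.72). Dio3, the inactivating one, stood at 16.1 RPKM in the E16.5 library and 4.12 RPKM in the P1 library, then at 0.857 (P3), 0.229 (P7), 0.205 (P14) and 0.834 RPKM (P28). It was highest at the earliest ages and its slope was -0.66 (adjusted p = 0.0166), a call absent without E16.5 (0.136) and with age in log2 days (0.0744). The carrier Ttr rose (slope 0.78) and is also among the pigment epithelium markers, which summed to 38.8 RPKM at P28 and 5.57 RPKM at E16.5. That sum includes Ttr itself (18.75 RPKM at P28 and 0.622 RPKM at E16.5) and Rgr (13.4 and 0.428 RPKM). Of the markers Pmel (0.871 and 2.77 RPKM) and Best1 were lower at P28 than at E16.5, and the others were higher. The part of pigment epithelium was not tested.

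**Figure D4:**
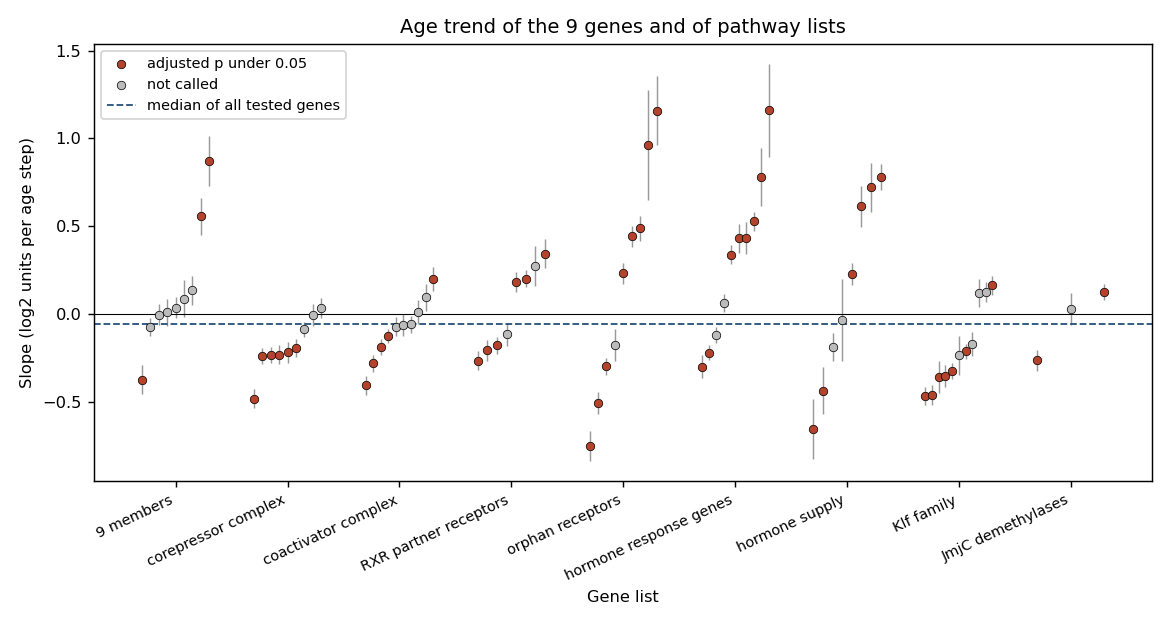
Slope of log2(RPKM + 1) per age step (vertical axis) for every tested gene of the 9-gene set and of 8 pathway lists (horizontal axis); bars are ± 1 SE of the limma fit, red points have an adjusted p under 0.05, and the dashed line is the median of all tested genes (-0.059). In the 9-gene set Hr and Klf9 lie at the top and Rxrg at the bottom, and the corepressor list has no red point above 0.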

How the data were processed

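The authors deposited 1 table of RPKM values for 30042 genes in 6 wild-type retina libraries, per the file headers. Per the labels' protocols, messenger RNA was purified on beads, copied into double-stranded cDNA, fragmented and built into libraries with a kit for ChIP DNA. The build was mm9 and reads came through bcl2fastq version 2.17.1.14, per the submitters' processing notes. The sources used here do not name the aligner, counter, annotation or strand. RPKM does not correct for abundant genes taking up reads.

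All fits used log2(RPKM + 1), a scale that shrinks changes of low genes, over 15272 genes reaching 1 RPKM in some library. Slopes and curvature used limma 3.58.1 in R 4.3.3 (lmFit, eBayes with trend=TRUE), with 4 and 3 residual degrees of freedom, and were tested on simulated data. Differences between members were tested by exact permutation of 720 library orders. Depth was estimated from whole-read steps of values under 0.3 RPKM in 5863 genes with a single GENCODE M21 length, with 66.6% to 68.9% of those values per library whole within 0.05 reads; member reads use the shortest RefSeq-linked transcript. The 9 members and the lists were chosen with earlier results of these data known. Named were the members, the 2 highest and 2 lowest called slopes of each pathway list, chosen paralogues and supply genes, and the 3 genes most alike to each member (highest value at least 5 RPKM, range at least 1 log2 unit); some genes that this rule names are not reported here. Alternatives changed the pseudocount, filter, scaling, age scale, title form and, as a trace correction, P28 less 2.51% of E16.5, and left out each library. Coordinates are given for RefSeq promoter entries only (GRCm38.p6), a build other than that of the deposited values.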

Additional observations from a re-analysis of the deposited data

How the results depend on the processing

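The rise of Klf9 and Hr and the fall of Rxrg were called in each of the 14 alternative fits. Thrb also rose without E16.5. Slopes that did not pass and changed sign were those of Rxra with median-of-ratios rescaling (0.049) and a common total (0.074), Ncor1 with a common total (0.0098), and Thra with age in log2 days (-0.049) and a title term (-0.028). Without 1 library each, slopes ranged from -0.054 to 0.062 for Thra, -0.011 to 0.30 for Thrb, -0.040 to 0.064 for Rxra, -0.00087 to 0.060 for Rxrb and -0.0058 to 0.24 for Ncoa1. The slope of Rxrg minus Rxra was then -0.44 to -0.32, of Rxrg minus Rxrb -0.43 to -0.38 and of Rxra minus Rxrb -0.080 to 0.025. That of Hr minus Klf9 was 0.57 with a pseudocount of 0.1 RPKM (adjusted p = 0.0333). Over all tested genes 2326 rose and 4571 fell as deposited, 3110 and 3396 with median-of-ratios rescaling and 3293 and 2668 with a common total without the 50 highest genes; the last of these moved the median gene by -0.22 log2 units at E16.5 and 0.15 at P28. The cause was not tested. Curvature was called for 0 members under every alternative run, which for curvature leaves out the title term. Ncoa1 passed 1 log2 unit at P14 over E16.5 with either rescaling or a pseudocount of 0.1, which made 3 members higher in place of 2. Of the pathway genes named, Kat2b, Ncoa3, Rara, Nr2e3, Dio3, Klf2 and Kdm3b were not called with age in log2 days (adjusted p 0.0551 to 0.131), Kat2b (0.0698) and Nr2e3 (0.0721) without a filter, Kat2b (0.0516), Klf2 (0.0629) and Kdm3b (0.0626) with a title term, and Kdm3b (0.0540) with the trace of E16.5 subtracted from P28. No paired analysis was possible because each age has 1 library. Depth limits Hr before P7 and Rxrg at P28 (35 estimated reads).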
